A study of Mus musculus with 9 samples.

Results

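Interferon response genes are the antiviral genes that cells switch on after interferon signalling, and 33 of them were followed here through the authors' 2 deposited comparisons of transfected astrocytes. The genes were taken by name from a list, which was made with earlier results of these data known, and were matched by symbol or, where the table gave none, by gene ID. All 33 had a ratio among the 18971 genes of the JICD1 table. In the NICD1 table of 19287 genes 31 had one, all except the RNA sensor gene Ifih1 and the antiviral gene Rsad2. The same 31 were therefore among the 18182 genes shared by both tables. By role the 33 were 6 sensors, 4 transcription factors and 23 effectors.

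RNA had been sequenced from cultured mouse brain astrocytes of the Ink4a-/- genotype, which lack a tumour suppressor that restrains the cell cycle. The 9 libraries were 3 from cells given the empty pcDNA puro vector (control), 3 from cells given pcDNA HA-JICD1 puro (JICD1) and 3 from cells given pcDNA NICD puro (NICD1). JICD1 is the intracellular fragment of the Notch ligand Jagged1, carried here with an HA tag, and NICD1 is the intracellular, gene-activating fragment of the receptor Notch1. Every group shared the Ink4a-/- background, the vector backbone with its puromycin resistance gene, and the transfection. Animal age, and whether each group was a pool of cells or a clone, are not given in the sources used here, nor is whether the libraries of a group came from separate cultures.

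For each gene the authors deposited a log2 ratio, transfected group against control, with a score from 0 to 1 under the name Probability. These were the values read here. Without values per library there is no replicate error, test or p-value for any ratio, the depth is unknown, and "higher" and "lower" describe the sign of a ratio only. A score of 0.8 or more is called high below. It is not a significance level, and it varied widely among genes past 2-fold. In the JICD1 table the 5485 genes with at least a 2-fold difference had scores from 0.164 to 0.998. Some ratios lay on a common lower edge of the score, which was taken to mean that 1 of the groups sat at a floor value, and no fold is given for them. In bulk RNA, fewer cells of a type and less RNA per cell cannot be told apart.

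Facts of the series that touch every value below were few. Jag1, the gene of the ligand whose fragment was introduced, stood at -1.39 with JICD1, against the label, and at 1.36 with NICD1 in the authors' deposited tables. Whether reads of the introduced fragment were counted for Jag1 is not stated, so every JICD1 direction below is that of the library group labelled JICD1. Notch1 stood at 1.33 and 1.77 in the JICD1 and NICD1 comparisons of the authors' deposited tables. Cdkn2a, the gene of the Ink4a product, had no JICD1 ratio and stood at 7.59 with NICD1 in the authors' deposited table, with its control taken to lie at the floor, although the label gives the genotype Ink4a-/- to every group. Which exons the allele lacks is not stated. Of 12 astrocyte markers 11 had a ratio in both tables, and Aqp4, an astrocyte water channel gene, had one in neither. The tables hold no expression level, so how strongly the cells expressed the other markers cannot be read from them.

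Interferons act in 2 steps. Sensors such as RIG-I (Ddx58) and MDA5 (Ifih1) detect viral RNA in the cytoplasm and lead to secretion of interferon. Interferon then binds its receptors on the cell surface, JAK kinases activate STAT proteins, and a complex that holds STAT2 and IRF9 binds the interferon-stimulated response element (ISRE) near effector genes. Interferon gamma acts through another element, the gamma-activated site (GAS), and Irf1 is one of its best known targets. Astrocytes are known to respond to interferons and to make them during viral infection of the brain.

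The promoters of the members were searched for both elements. RefSeq windows of 300 bases on GRCm38.p6, from 250 before to 50 after an annotated start, were found for 24 of the 33 members. The others were Zbp1, Dhx58, Rtp4, Mx1, Mx2, Parp14, Usp18, Oas2 and Ifi27l2a. The windows were searched on both strands for 9 letters of the ISRE core, GAAANNGAA, and for the GAS letters TTCNNNGAA. The 4 windows printed here belong to Isg15, a much-used reporter of the response, and to Oas1a, Gbp2 and Oasl2, the members with a window that had the largest absolute differences between JICD1 and NICD1. Isg15 lies at chr4:156200769-156201068 on the minus strand and Oas1a at chr5:120907476-120907775 on the minus strand. Gbp2 lies at chr3:142620413-142620712 and Oasl2 at chr5:114896684-114896983, both on the plus strand. All are written 5′ to 3′ along the gene, with matches to the ISRE core on either strand in capitals.
Isg15: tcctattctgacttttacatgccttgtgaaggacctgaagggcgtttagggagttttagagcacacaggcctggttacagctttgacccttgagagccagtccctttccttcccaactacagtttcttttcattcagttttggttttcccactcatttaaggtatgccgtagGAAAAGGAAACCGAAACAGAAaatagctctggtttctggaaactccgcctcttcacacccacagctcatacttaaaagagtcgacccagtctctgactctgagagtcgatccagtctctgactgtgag
Oas1a: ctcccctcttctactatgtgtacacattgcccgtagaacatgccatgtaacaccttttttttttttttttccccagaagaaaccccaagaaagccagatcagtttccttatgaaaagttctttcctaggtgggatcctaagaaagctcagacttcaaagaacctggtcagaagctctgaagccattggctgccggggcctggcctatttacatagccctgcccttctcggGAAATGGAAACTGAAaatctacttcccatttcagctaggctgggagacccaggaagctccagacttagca
Gbp2: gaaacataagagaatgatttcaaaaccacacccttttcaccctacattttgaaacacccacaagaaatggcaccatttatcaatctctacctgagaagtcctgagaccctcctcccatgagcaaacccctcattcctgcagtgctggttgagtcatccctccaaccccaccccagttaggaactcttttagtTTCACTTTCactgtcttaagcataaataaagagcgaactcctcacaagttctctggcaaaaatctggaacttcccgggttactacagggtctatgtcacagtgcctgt
Oasl2: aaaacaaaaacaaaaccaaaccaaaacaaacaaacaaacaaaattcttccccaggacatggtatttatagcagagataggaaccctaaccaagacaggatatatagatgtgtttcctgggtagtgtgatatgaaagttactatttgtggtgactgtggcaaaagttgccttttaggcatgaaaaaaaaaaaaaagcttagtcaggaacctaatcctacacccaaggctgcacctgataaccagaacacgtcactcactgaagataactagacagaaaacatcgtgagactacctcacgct

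Isg15 held 3 overlapping matches to the ISRE core, Oas1a held 2 overlapping matches and Gbp2 held 1, whereas Oasl2 held none in its window. Across the members 15 of 24 (62.5%) held the ISRE core, against 2638 of 27025 (9.76%) of all genes with a window. The GAS letters were found in 7 of 24 members (29.2%), against 2582 of 27025 (9.55%) of all genes. In 2 members, Bst2 and Ifitm3, an ISRE match and a GAS match overlapped. By role the ISRE core was present in 4 of 4 sensors with a window, 10 of 16 effectors and 1 of 4 transcription factors, the last being Stat2. Irf1 held a GAS match and no ISRE match. A match is a match of letters and does not show that a factor binds there.

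**Figure D1:**
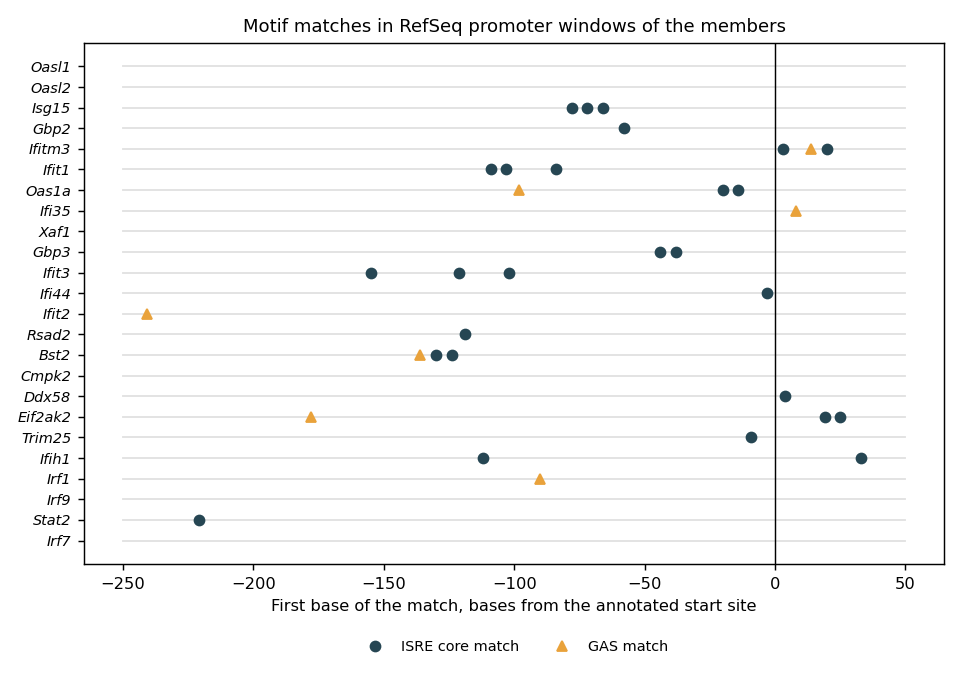
Matches to the ISRE core (circles) and the GAS letters (triangles) in the promoter windows of the 24 members with a RefSeq window, by distance in bases from the annotated start site on the horizontal axis, with windows of the same gene drawn on 1 line. Isg15, Ifit1 and Ifit3 hold 3 ISRE matches each upstream of the start, and 6 members (Oasl1, Oasl2, Xaf1, Cmpk2, Irf9 and Irf7) hold no match of either kind.

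Cells given JICD1 were first set against control cells. Members went both ways with large ratios: 11 of 33 were at least 2-fold lower and 8 at least 2-fold higher. Among all genes 14.4% were at least 2-fold lower and 14.5% at least 2-fold higher. The median log2 ratio of the members was -0.44, beside 0.05 over all genes. Of the 33 members 19 lay below 0, beside 45.5% of all genes, and 14 above 0, beside 54.5%. High scores were held by 3 members in the authors' deposited table, the interferon regulatory factor gene Irf1 and the membrane antiviral gene Ifitm3 lower and the tetherin gene Bst2 higher. Over all genes 1.74% had a high score and were lower, and 1.07% had one and were higher.

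With NICD1 against control fewer members lay past 2-fold. In that comparison 2 of 31 were at least 2-fold lower, Oasl1 and Oas1a, beside 12.1% of all genes, and 5 were at least 2-fold higher, beside 16.6%. Their median log2 ratio was 0.23, beside -0.02 over all genes, and it was 0.026 among the 17 members named by the table's own symbols. Of the 31 members 22 lay above 0, beside 48.5% of all genes, and 9 below 0, beside 51.5%. None had a high score in the authors' deposited table, where 1.64% of all genes had one and were higher and 0.97% had one and were lower. The member with the highest score was Bst2, at 0.756 in the authors' deposited table.

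**Figure D2:**
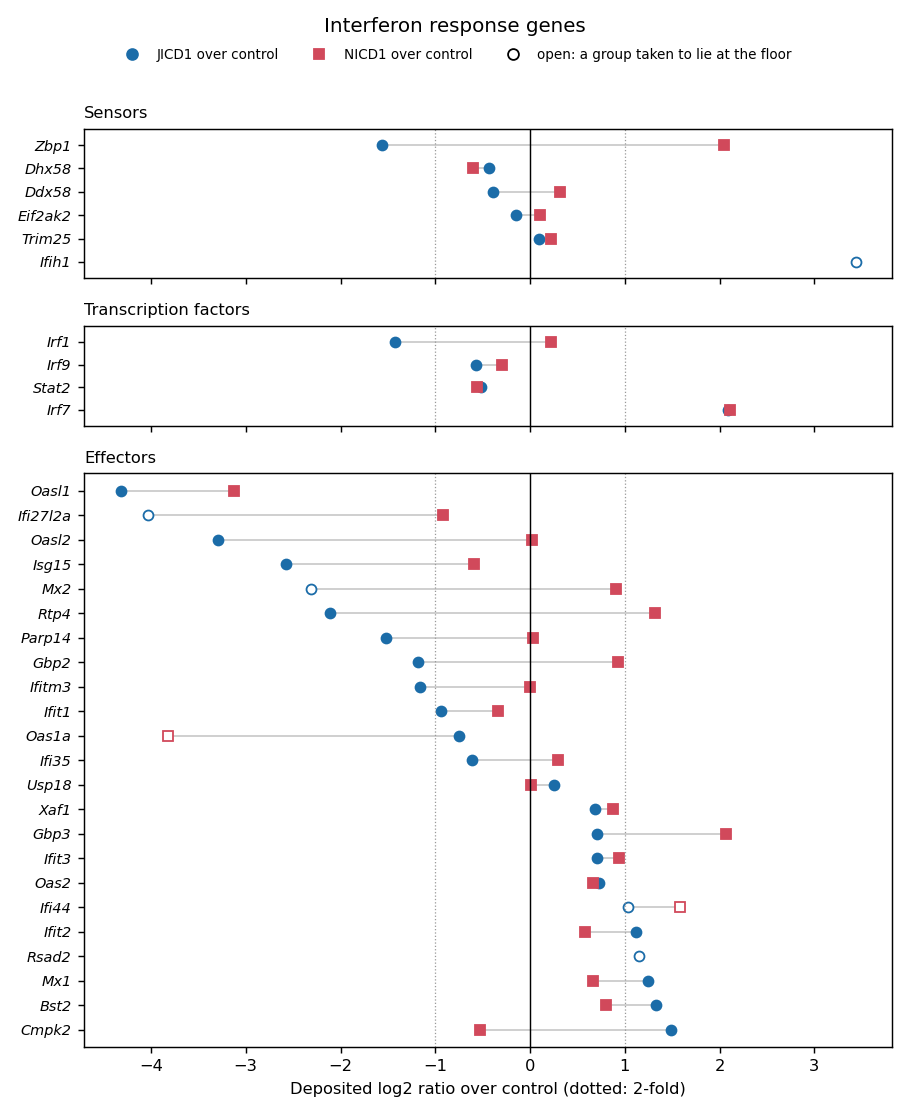
Deposited log2 ratios over control of the 33 members by role, with JICD1 as circles and NICD1 as squares, each a single value per gene with no replicate error, dotted lines at a 2-fold difference and open symbols where a group was taken to lie at the floor. The effectors spread from -4.32 to 1.49 with JICD1, and most JICD1 values at the lower end lie far to the left of the NICD1 value of the same gene.

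The sensors other than Zbp1 and Ifih1 stayed near control with both constructs. Ddx58, which encodes the RNA helicase RIG-I, stood at -0.39 with JICD1 and 0.32 with NICD1 in the authors' deposited tables. Trim25, the ubiquitin ligase that activates RIG-I, stood at 0.09 and 0.23 in the authors' deposited tables. Eif2ak2, the gene of the double-stranded RNA kinase PKR, stood at -0.15 and 0.11 in the authors' deposited tables. These 3 genes were within 1.31-fold of control in both comparisons. Dhx58, the gene of the RIG-I relative LGP2, was lower with both, at -0.44 and -0.61 in the authors' deposited tables.

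Zbp1, a sensor of Z-form nucleic acid that can trigger cell death, went opposite ways. It stood at -1.57 with JICD1 (2.96-fold lower, score 0.246) and at 2.05 with NICD1 (4.13-fold higher, score 0.450) in the authors' deposited tables. Both scores are below 0.5, so neither ratio is among those the authors' score ranks high. Ifih1, the MDA5 gene, stood at 3.44 with JICD1 (score 0.321) in the authors' deposited table, and its control group was taken to lie at the floor. It had no NICD1 ratio, and of the 789 genes with a JICD1 ratio only, 779 lay above 0. No fold is given for Ifih1. The median of the 6 sensors was -0.27 with JICD1, and that of the 5 with a NICD1 ratio was 0.23.

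Among the transcription factors Irf1 and Irf7 stood furthest from control. Irf1, a factor induced by interferon gamma and other cytokines, was 2.69-fold lower with JICD1, at -1.43 (score 0.828) in the authors' deposited table. With NICD1 it stood at 0.22 (score 0.533) in the authors' deposited table. Irf1 was thus the member with the highest score in the JICD1 comparison, and its ratio came within 1.17-fold of control in the other.

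Irf7, the factor that amplifies type I interferon production, was alike with both constructs. It stood at 2.08 with JICD1 (4.24-fold higher, score 0.338) and at 2.11 with NICD1 (4.32-fold higher, score 0.349) in the authors' deposited tables. Both values rest on the same control group. Stat2 and Irf9 encode parts of the complex that binds the ISRE. Stat2 stood at -0.51 and -0.56 in the authors' deposited tables, JICD1 first. Irf9 stood at -0.57 and -0.30 in the authors' deposited tables. Both genes were therefore below control by less than 2-fold in each comparison. The median of the 4 factors was -0.54 with JICD1 and -0.04 with NICD1.

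The effectors had the widest spread. With JICD1 9 of 23 were at least 2-fold lower, beside 14.4% of all genes, and 6 at least 2-fold higher, beside 14.5%, with a median of -0.61. With NICD1 2 of 22 were at least 2-fold lower, beside 12.1% of all genes, and 3 at least 2-fold higher, beside 16.6%, so these counts were below the shares of all genes. The effector median with NICD1 was 0.44, and it was 0.0066 among members named by the tables' own symbols. The gene of Isg15, a ubiquitin-like protein that is attached to other proteins, was 5.97-fold lower with JICD1, at -2.58 (score 0.769) in the authors' deposited table. With NICD1 it stood at -0.59 in the authors' deposited table. Usp18, which removes ISG15 from proteins and damps receptor signalling, stood at 0.25 and 0.01 in the authors' deposited tables. Thus Isg15 and the gene of its protease did not share a ratio with JICD1, though the low Usp18 score limits that contrast.

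Oligoadenylate synthetases sense double-stranded RNA and switch on RNA degradation, and Oasl1 and Oasl2 encode relatives of these enzymes. Their genes were counted here as effectors, while Trim25 was counted as a sensor, and the counts and medians by role rest on that choice. Oasl1 was lower with both constructs, at -4.32 (19.9-fold) with JICD1 and -3.13 (8.74-fold) with NICD1 in the authors' deposited tables, with scores of 0.542 and 0.506. Oasl2, its direct neighbour on chromosome 5 with 0 protein-coding genes between them, was 9.78-fold lower with JICD1 at -3.29 and level with control at 0.02 with NICD1 in the authors' deposited tables. Both neighbours were therefore lower with JICD1, and Oasl1 but not Oasl2 was lower with NICD1. Oas1a stood at -0.75 with JICD1 and -3.82 with NICD1 in the authors' deposited tables, where the NICD1 group was taken to lie at the floor. Oas2 stood at 0.73 and 0.66 in the authors' deposited tables, with scores of 0.162 and 0.159. Those Oas2 scores were above only 3.33% and 6.0% of the scores of the 300 genes nearest in absolute ratio. Oas1a has near-identical copies, and how reads that match several copies were counted is not stated, so its ratios are uncertain.

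Ifit genes, whose proteins bind foreign RNA ends, went different ways although they lie together on chromosome 19. Ifit2 was 2.17-fold higher with JICD1, at 1.12 (score 0.789) in the authors' deposited table, and stood at 0.58 with NICD1. Ifit3, with 0 protein-coding genes between it and Ifit2, stood at 0.71 and 0.94 in the authors' deposited tables with scores of 0.189 and 0.217. Ifit1 stood at -0.94 and -0.34 in the authors' deposited tables with scores of 0.202 and 0.169. Ifit2 was thus the member of the family with a score above 0.5, in both comparisons. Ifit3 also has a near-identical copy, Ifit3b, so its split of reads is uncertain.

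The antiviral GTPase genes Mx1 and Mx2, both on chromosome 16, had opposite signs with JICD1. Mx1 stood at 1.24 and 0.66 in the authors' deposited tables. Mx2 stood at -2.31 with JICD1, where the JICD1 group was taken to lie at the floor, and at 0.91 with NICD1 in the authors' deposited tables. The scores of both Mx genes were at most 0.270 in the authors' deposited tables. Guanylate-binding protein genes Gbp2 and Gbp3 encode interferon-induced GTPases that attack the membranes around intracellular pathogens. Gbp2 was 2.26-fold lower with JICD1 at -1.18 and stood at 0.93 with NICD1 in the authors' deposited tables, with scores of 0.630 and 0.685. Gbp3, with 1 protein-coding gene between it and Gbp2 on chromosome 3, stood at 0.70 with JICD1 and 2.07 (4.2-fold higher) with NICD1 in the authors' deposited tables. Both Gbp genes were thus lower with JICD1 than with NICD1.

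Membrane effectors were split. Bst2 encodes tetherin, which holds budding viruses on the cell surface, and was 2.51-fold higher with JICD1 at 1.33 and 1.75-fold higher with NICD1 at 0.80 in the authors' deposited tables. Its scores of 0.827 and 0.756 exceeded 98.0% and 88.7% of those of the 300 genes nearest in absolute ratio. Ifitm3, whose protein blocks viral entry in endosomes, was 2.23-fold lower with JICD1 at -1.16 (score 0.825) and level with control with NICD1, 1.00-fold, in the authors' deposited tables. Bst2 and Ifitm3 were the effectors with a high score, and they had opposite signs.

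Among the other effectors Rtp4, Parp14 and Ifi27l2a were past 2-fold lower with JICD1 and not with NICD1. Rtp4, an interferon-induced chaperone of receptors, was 4.32-fold lower with JICD1 at -2.11 and 2.50-fold higher with NICD1 at 1.32 in the authors' deposited tables, with scores of 0.540 and 0.627. Parp14, an ADP-ribosyltransferase gene, was 2.88-fold lower with JICD1 at -1.52 and level at 0.03 with NICD1 in the authors' deposited tables. Ifi27l2a stood at -4.03 with JICD1, where the group was taken to lie at the floor, and at -0.91 with NICD1 in the authors' deposited tables. Ifi35 stood at -0.61 and 0.29 in the authors' deposited tables.

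A further set of effectors was higher with JICD1 at low scores. Cmpk2, a mitochondrial nucleotide kinase gene, stood at 1.49 (2.81-fold higher) with JICD1 and -0.53 with NICD1 in the authors' deposited tables, with scores of 0.235 and 0.158. Its direct neighbour on chromosome 12, Rsad2, encodes viperin and stood at 1.15 with JICD1 in the authors' deposited table with its control taken to lie at the floor. Ifi44 stood at 1.03 and 1.58 in the authors' deposited tables, also with its control taken to lie at the floor. Xaf1, a gene that promotes cell death, stood at 0.68 and 0.88 in the authors' deposited tables. No fold is given for Rsad2 and Ifi44. Of the 8 members at least 2-fold higher with JICD1, 5 had neither group at the floor.

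**Figure D3:**
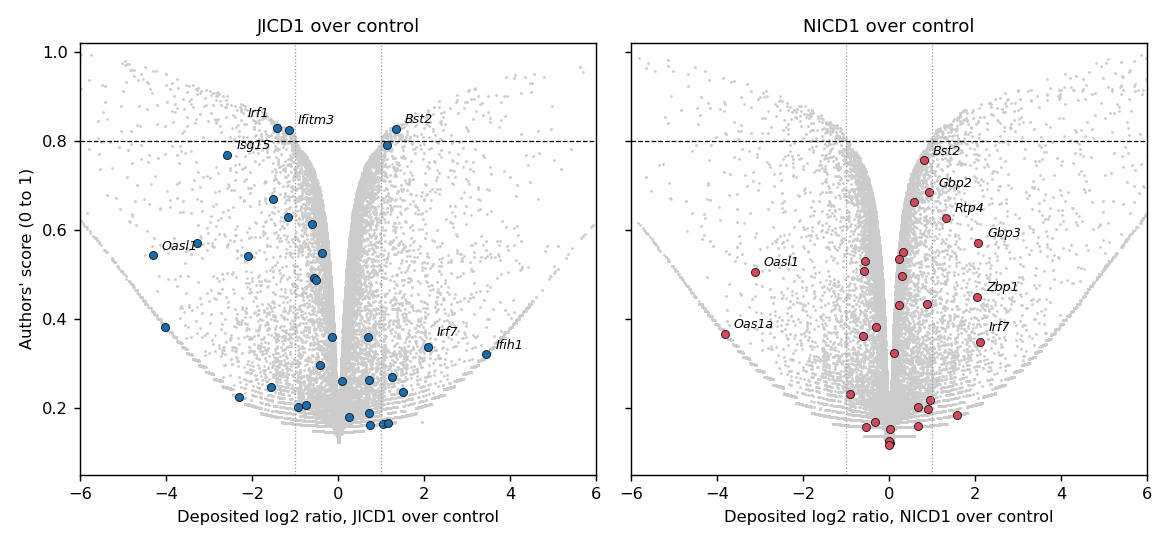
The authors' score against the deposited log2 ratio for all genes (grey) and the members (coloured), for JICD1 on the left and NICD1 on the right, with a dashed line at a score of 0.8 and dotted lines at a 2-fold difference; genes beyond an absolute log2 ratio of 6 are outside the axes. Irf1, Ifitm3 and Bst2 lie above the line with JICD1 and no member does with NICD1, while Ifih1 lies on the lower edge with JICD1 and Irf7 lies below a score of 0.4 in both panels.

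JICD1 and NICD1 were then compared directly by subtracting the log2 ratios, which removes the shared control. Of 31 members 12 were at least 2-fold lower with JICD1 than with NICD1, beside 13.6% of all genes, and 2 were at least 2-fold higher, beside 10.6%. The median difference was -0.55, beside 0.04 over all genes, and 22 of 31 lay below 0, beside 43.7% of all genes, with 9 above 0, beside 52.5%. Without members at the floor the median difference was -0.28. The lower 12 were Zbp1, Rtp4, Oasl2, Mx2, Ifi27l2a, Gbp2, Isg15, Irf1, Parp14, Gbp3, Oasl1 and Ifitm3. Zbp1 had the largest difference at -3.61, followed by Rtp4 at -3.43 and Oasl2 at -3.31, all from the authors' deposited tables. Isg15 differed by -1.99 and Irf1 by -1.65 in the authors' deposited tables. The higher 2 were Cmpk2 at 2.03 and Oas1a at 3.07, and the Oas1a value rests on an NICD1 group taken to lie at the floor. Among the lower 12, Mx2 and Ifi27l2a rest on a JICD1 group taken to lie at the floor. No test of these differences was possible.

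By role 10 of the 12 were effectors, and effectors made up 22 of the 31 members with both ratios. The effector median was -0.75. Among all genes 13.6% were at least 2-fold lower with JICD1 than with NICD1, and the median was 0.04. Of the 5 sensors 1 passed that size, Zbp1, with a median of -0.25, and of the 4 transcription factors 1 did, Irf1, with a median of -0.15. Stat2 differed by 0.05 and Irf7 by -0.03 in the authors' deposited tables. Subtracting the median of all genes turned the sign of the Stat2 difference, which is close to 0. With 5 sensors and 4 factors these shares are too coarse to set the roles apart.

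**Figure D4:**
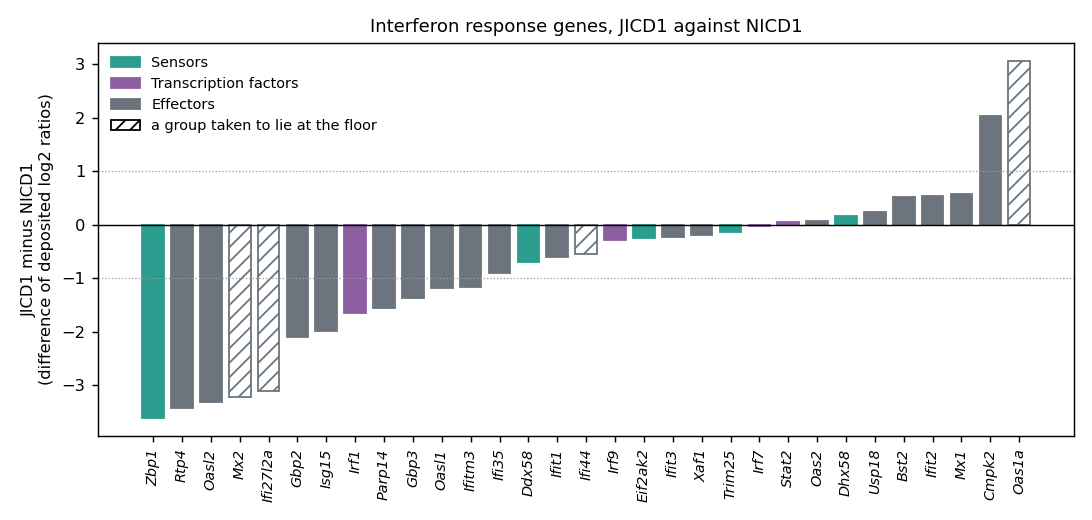
Difference of the deposited log2 ratios, JICD1 minus NICD1, for the 31 members with both values, coloured by role, hatched where a group was taken to lie at the floor in either comparison, with dotted lines at a 2-fold difference and no replicate error. The 12 bars on the left are at or beyond -1, and Cmpk2 and Oas1a are the 2 beyond 1 on the right.

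Members with an ISRE match in their window did not share a direction. The 15 such members ran from -2.58 (Isg15) to 3.44 (Ifih1) with JICD1, with 3 at least 2-fold lower and 4 at least 2-fold higher in the authors' deposited table. The 9 members with a window and no ISRE match ran from -4.32 to 2.08, with 3 lower and 3 higher by that size. Among all genes 14.4% were lower and 14.5% higher by that size with JICD1. Medians of members with and without a match were -0.15 and -0.57 with JICD1 and 0.23 and 0.22 with NICD1. Over all genes the medians were 0.05 with JICD1 and -0.02 with NICD1. The 9 members with no window could not be placed in either set. With JICD1 5 of them were at least 2-fold lower and 1 higher, with a median of -1.52. Oasl2, whose printed window has no capitals, had a JICD1 ratio below that of Isg15, whose window has an unbroken stretch of them.

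The rest of the pathway was taken from lists of other genes. Of 11 interferon ligand genes 3 had a JICD1 ratio and 2 a NICD1 ratio. Ifnb1, the gene of interferon beta, had the same ratio of -2.51 in both of the authors' deposited tables, and both transfected groups were taken to lie at the floor. Ifne stood at -2.61 with JICD1, with that group taken to lie at the floor, and at 0.03 with NICD1 in the authors' deposited tables. Ifnk stood at 2.48 with JICD1 in the authors' deposited table, with its control taken to lie at the floor. Scores of the ligand genes were at most 0.247, so none of them ranks high by the authors' score.

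Receptor genes were close to control with both constructs. Ifnar1 and Ifnar2 encode the type I receptor chains. Ifnar1 stood at 0.14 and 0.10 in the authors' deposited tables, and Ifnar2 stood at -0.29 and 0.28. Ifngr1 and Ifngr2, the receptor chains for interferon gamma, stood at -0.48 and -0.43 with JICD1 and at -0.09 and -0.03 with NICD1 in the authors' deposited tables. Il10rb, a chain shared with the lambda interferon receptor, stood at 0.03 and 0.26 in the authors' deposited tables. Thus 0 of 5 receptor genes with a ratio reached a 2-fold difference in either comparison. Among all genes 14.4% were lower and 14.5% higher by that size with JICD1, and 12.1% and 16.6% with NICD1.

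JAK and STAT genes were also within 2-fold of control. Tyk2, a kinase bound to the type I receptor, stood at -0.69 and -0.75 in the authors' deposited tables, Jak1 at -0.31 and 0.07, and Jak2 at -0.06 and 0.29. Stat3, used mainly by the IL-6 family, stood at 0.15 and 0.85 in the authors' deposited tables. These 4 genes were thus less than 2-fold from control with both constructs. Among all genes 14.4% were at least 2-fold lower and 14.5% higher with JICD1, and 12.1% and 16.6% with NICD1. With 4 genes these shares are too coarse to set the list apart from all genes.

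Genes that lead to interferon production had medians of -0.22 over 13 genes with JICD1 and 0.05 over 12 genes with NICD1. The exception in size was Irf5, a factor that drives cytokine genes, which stood at -1.68 with JICD1 (score 0.389) and 2.44 with NICD1 (score 0.733) in the authors' deposited tables. Mavs, the mitochondrial adaptor of RIG-I and MDA5, stood at -0.58 and -0.07 in the authors' deposited tables. Cgas, the DNA sensor gene, stood at -0.49 and 0.57 in the authors' deposited tables, and Tlr7 at -0.20 and 0.39. Irf8 stood at 0.85 with JICD1 and had no NICD1 ratio, and Ticam1, the adaptor of TLR3, stood at 0.29 and 0.31 in the authors' deposited tables. Irf5 was the 1 gene of this list past 2-fold, lower with JICD1 and higher with NICD1. Among all genes 14.4% were lower by that size with JICD1 and 16.6% higher with NICD1.

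Of 8 negative regulators Ptpn6, the SHP-1 phosphatase gene, was the 1 past 2-fold, lower with JICD1, beside 14.4% of all genes. It stood at -2.30 with JICD1 (score 0.810) and at -0.89 with NICD1 in the authors' deposited tables. The feedback inhibitor genes were near control. Socs1 stood at 0.21 and -0.44 and Socs3 at -0.60 and 0.01 in the authors' deposited tables. Irf2 stood at -0.23 and 0.07, Pias1 at -0.26 and -0.21, and Ptpn1 at -0.02 and 0.34 in the authors' deposited tables.

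In a list of 41 other interferon-stimulated genes the shares past 2-fold against control were near or below those of all genes. With JICD1 36 had a ratio, of which 5 were at least 2-fold lower, beside 14.4% of all genes, and 3 at least 2-fold higher, beside 14.5%, with a median of -0.39. With NICD1 39 had a ratio, of which 5 were lower by that size, beside 12.1% of all genes, and 7 higher, beside 16.6%, with a median of 0.22. Between the constructs 14 of 36 were at least 2-fold lower with JICD1, beside 13.6% of all genes, and 3 higher, beside 10.6%. The median difference was -0.46, so this list was lower with JICD1 than with NICD1, as the members were. Ifitm1, a relative of Ifitm3, stood at -6.89 with JICD1 (score 0.940) and -1.70 with NICD1 in the authors' deposited tables. Apobec3, a cytidine deaminase that restricts retroviruses, stood at -1.06 with JICD1 (score 0.806) and -0.08 with NICD1 in the authors' deposited tables. These were the 2 genes of the list with a high score, both lower with JICD1. Sp100, a nuclear body gene, was lower with both at -2.16 and -2.50, and Gbp7 was higher with both at 2.36 and 3.48 in the authors' deposited tables. Trim30a stood at -0.51 and -2.13 in the authors' deposited tables. Ifit3b had a NICD1 ratio alone, 2.94, with its control taken to lie at the floor in the authors' deposited table.

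**Figure D5:**
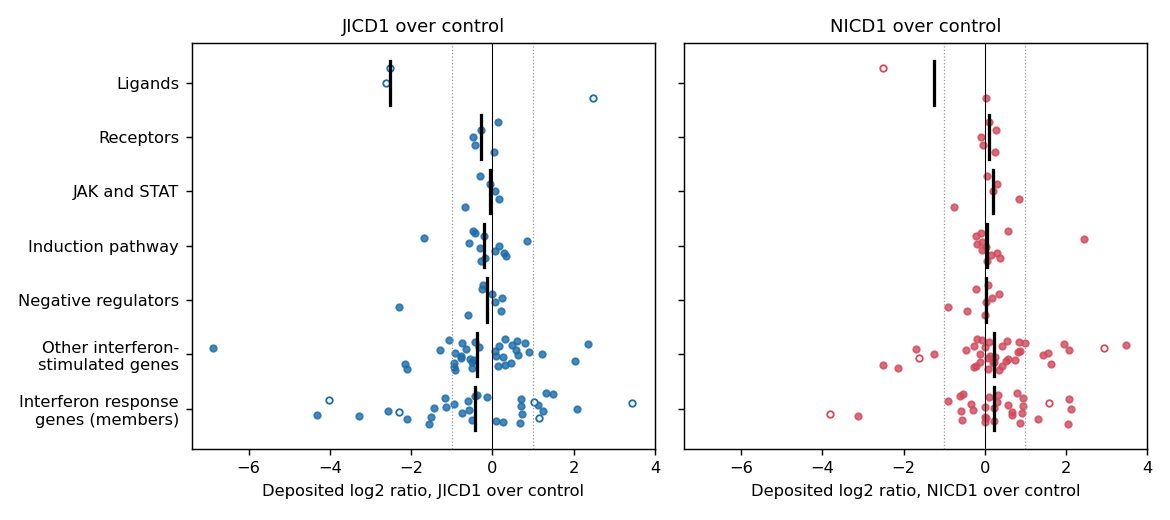
Deposited log2 ratios of the interferon pathway lists and of the members, 1 point per gene, for JICD1 on the left and NICD1 on the right, with black bars at the median, dotted lines at a 2-fold difference and open points where a group was taken to lie at the floor. Receptors and JAK and STAT genes lie within 2-fold of control in both panels, while the members and the other interferon-stimulated genes spread past it on both sides.

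Markers of other cell types were read beside these genes because microglia and macrophages express many of them. Of 12 microglia and macrophage markers 8 had a ratio, and Tyrobp, C1qa, C1qb and Adgre1 had none in either table. With JICD1 3 of the 8 were at least 2-fold lower, beside 14.4% of all genes, and 1 higher, beside 14.5%. The range was -8.48 to 1.87 with a median of -0.36, and the JICD1 group was taken to lie at the floor for Aif1. With NICD1 1 was lower by that size, beside 12.1% of all genes, and 3 were higher, beside 16.6%. That range was -1.36 to 3.17 with a median of 0.88. Between the constructs 7 of 8 were lower with JICD1, beside 43.7% of all genes, with a median difference of -2.34. P2ry12 stood at -2.79 and 2.07 (scores 0.334 and 0.496), JICD1 first, in the authors' deposited tables. Csf1r stood at -0.12 and 3.17 (scores 0.146 and 0.459) in the authors' deposited tables. Tmem119 was lower with both at -8.48 and -1.36, and its JICD1 score of 0.962 was the 1 high score among these markers. Ptprc, at 1.87 and 1.18 in the authors' deposited tables, went the other way between the constructs. Most of the microglial markers thus lay below 0 between the constructs, as most members did, and their part in the result was not tested. Of the 6 lymphocyte markers only Cd8a had a ratio, 0.41 and 1.81 in the authors' deposited tables.

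Fibroblast and pericyte markers were at least 2-fold lower with JICD1 in 5 of 5 genes with a ratio, beside 14.4% of all genes. Their median was -2.81, and the JICD1 group was taken to lie at the floor for Dcn. With NICD1 4 of 6 were at least 2-fold lower, beside 12.1% of all genes, with a median of -2.16. Endothelial markers had medians of -0.08 with JICD1 and 0.14 with NICD1 over 6 genes each. Astrocyte markers had medians of -0.72 and -0.69 over 11 genes each, beside 0.05 and -0.02 over all genes. Above 0 lay 4 of the 11 with JICD1, beside 54.5% of all genes, and 3 with NICD1, beside 48.5%. High scores with JICD1 were held by Nfia, at 3.77, and Clu, at -3.88, in the authors' deposited table. The part of these cell types in the interferon gene values was not tested.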

How the data were processed

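Libraries of 9 samples in 3 groups were described by the labels. Per the submitters' processing notes, Bowtie2, BWA and the build mm9 were used, with no role or version stated. How the authors counted, normalized and combined the libraries of a group before making the ratios is not stated. Per the file headers, the authors' 2 tables give each gene a log2 ratio. A score from 0 to 1 stands beside it under the name Probability per the file headers, and how the authors made it is not stated. The tables held 0 other columns of per-sample values.

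The members and gene lists were chosen with earlier results of these data known. The edgeR test foreseen for counts was not run, because no counts were used here. Names came from the Symbol column for 17 members and from gene IDs (RefSeq GRCm38.p6 and GENCODE M21) for the other 16. GRCm38 differs from mm9, so its names, gene order and promoter windows were joined to the tables by gene and not by coordinate.

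Named were all 33 members, every ligand, receptor, JAK and STAT gene with a ratio except 1 that is not reported here, and from the other pathway lists those with a score of 0.8 or more, filled up to 4 per list and table by absolute ratio. The score threshold follows an earlier look at these tables. Genes named in the account of cell type markers were chosen after their values were seen. The floor was inferred. Equal ratios in both tables, within 1e-06, were negative for 694 genes and positive for 1. Ratios of at least 1 in absolute log2 that lay within 0.002 of the score curve of those genes (0.01 above a log2 of 6) were read as floor values, 5 members with JICD1 and 2 with NICD1. The score percentile of a gene was taken among the 300 genes nearest in absolute ratio. Python 3.11.15, pandas 2.3.3 and NumPy 2.4.6 were used, and the calculations were tested on simulated data. Alternatives were another fold or score threshold, leaving out members at the floor, centring on the median of all genes, names of the tables only and members in both tables only.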

Additional observations from a re-analysis of the deposited data

How the results depend on the processing

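No paired analysis was possible because the ratios come from groups already combined, with no library values, and for the same reason the replicate block and the fits leaving out a replicate were not run. A median was taken as moved when it shifted by more than 0.1 on the log2 scale, and a count when it changed by more than 1.5 times. Subtracting the median of all genes moved none of the medians or counts over the members and turned 1 of the single genes, the Stat2 difference between the constructs, to -0.015.

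Without members at the floor, the count at least 2-fold higher with JICD1 was 5, the count lower with NICD1 was 1, the median between the constructs was -0.28 with 1 member higher, and the sensor median with JICD1 was -0.39, as it also was among members in both tables. With the tables' own symbols alone (17 members), the medians were -0.94 with JICD1 and 0.026 with NICD1, with 4 higher in the first and 3 higher and 1 lower in the second. By role that setting gave -1.57, 2.05 and -3.61 for the single sensor left, Zbp1, in the order JICD1, NICD1 and their difference. It gave -0.94, 0.0066 and -0.60 for effectors. For transcription factors it gave 0.22 with NICD1, a turned sign, and -0.027 between the constructs.

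A 1.5-fold threshold gave 12 higher and 5 lower with NICD1. A score of 0.7 or more gave 2 members higher with JICD1 and 1 higher with NICD1. An alternative chosen after seeing the data kept only members whose score exceeded that of at least 50% of the genes nearest in ratio. It gave a median of -1.18 and 3 higher with JICD1, a median of 0.45 and 1 lower with NICD1, and a median of -1.19 with 0 higher and 7 lower between the constructs. The settings that leave out members rest on fewer genes, and beyond that the cause was not tested. No share of all genes is given for these settings or for the changed thresholds, so their counts cannot be set beside one. Depth is unknown, so how precise a ratio is cannot be given.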

Other observations

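Some families within the pathway were put together after their values were seen and are given as description only. Guanylate-binding and immunity-related GTPases are induced by interferon gamma and act on the vacuoles of intracellular pathogens. Their genes were above 0 with NICD1 in 10 of 10, beside 48.5% of all genes. The median log2 ratio was 1.28 and the range 0.82 to 3.48. Gbp5 and Iigp1 had a NICD1 ratio only, and 1098 of the 1105 such genes lay above 0, so their sign adds nothing. The same family had a median of 0.32 with JICD1 over 8 genes. Of these 5 lay above 0, beside 54.5% of all genes, and 3 below, beside 45.5%. All 8 were at least 2-fold lower with JICD1 than with NICD1, from -1.12 to -2.11, beside 13.6% of all genes. In the authors' deposited tables Igtp stood at 0.59 with JICD1 and 2.07 with NICD1. Irgm1 stood at -1.28 and 0.82 in the authors' deposited tables. None of the 10 had a score of 0.8 or more in either comparison.

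The 8 genes of the Oas family were mixed between the constructs. Of these 5 lay above 0, beside 52.5% of all genes, with a median difference of 0.13, beside 0.04 over all genes. At least 2-fold lower with JICD1 were 3 of the 8, beside 13.6% of all genes, and 2 were higher, beside 10.6%. The higher 2, Oas1a at 3.07 and Oas1g at 1.73, rest on an NICD1 group taken to lie at the floor. With NICD1 3 of the 8 were at least 2-fold lower, beside 12.1% of all genes, and 0 higher, beside 16.6%. With JICD1 2 were lower by that size, beside 14.4% of all genes, and 0 higher, beside 14.5%. A further family held the PARP genes Parp9, Parp10, Parp12 and Parp14 with the Parp9 partner Dtx3l. With JICD1 5 of 5 lay below 0, from -1.52 to -0.44, beside 45.5% of all genes. With NICD1 5 of 5 lay above 0, from 0.03 to 0.74, beside 48.5%. Genes of the ISG15 conjugation chain were split. With JICD1 the activating enzyme gene Uba7 stood at -2.09, close to Isg15 at -2.58, and the conjugating enzyme gene Ube2l6 at -0.92 in the authors' deposited tables, while the ligase gene Herc6 stood at 0.49. With NICD1 none of these 5 genes, Usp18 included, was 2-fold from control, beside 12.1% of all genes lower and 16.6% higher. The 3 Ifitm genes were all below 0 with JICD1, beside 45.5% of all genes. Ifitm1 stood at -6.89, Ifitm3 at -1.16 and Ifitm2 at -0.65 in the authors' deposited table.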
